A study of Strongylocentrotus purpuratus with 2 samples.

Results

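Solute carriers are membrane proteins that move amino acids, sugars, carboxylates, inorganic ions, metals, nucleotide sugars and other small molecules across the plasma membrane or the membranes of organelles. They are numbered by family, and the family number follows the letters Slc in the gene name. Most of them are driven by ion gradients or by the gradient of the solute itself, whereas pumps and ABC transporters use ATP. In sea urchin embryos, transporters supply ions for the larval skeleton and take up dissolved nutrients from sea water. The names in the deposited tables rest on likeness to genes of other animals, so the roles given below are those known in mammals unless stated otherwise. The substrate of a sea urchin model is not shown by these data.

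The solute carriers described here are the transcript models of the purple sea urchin Strongylocentrotus purpuratus that carry a gene name beginning with Sp-Slc and a number. There were 371 such models, on 432 named rows, among 17269 models in all. A value was present for 275 of them, and 96 were blank in both libraries, or 25.9% against 25.1% of all models. A blank is a missing value and was never read as 0. Of the 275, 180 reached a mean level of 1 CPM (recovered reads scaled to the library total) over both libraries and are called measured here, and 95 lay below that floor with 1 to 9 reads in all. Over all models with a value, 8819 of 12943 were measured. The 371 models fell into 46 family numbers, of which 37 had a measured model. The rule also takes in Sp-SLC4A1AP, named for a protein that binds a solute carrier and is not itself one.

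RNA was sequenced from whole embryos 30 hours after fertilization, grown at 15 °C, with about 1000 embryos per sample. Fertilized eggs had been microinjected with a morpholino against soxC, an antisense oligonucleotide directed at the transcript of a SoxC transcription factor, or with glycerol alone. There was 1 library labelled SoxC morpholino, with 4763995 recovered reads, and 1 labelled glycerol control, with 4414503. Neither strain nor genotype is stated in the labels, and embryos given a control morpholino are not among the samples.

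With 1 library per group there was no replicate and no test between conditions. Effects of targeting soxC cannot be told apart from those of any morpholino or of a difference in culture or preparation between the samples. The soxC transcript (Sp-SoxC) had 14959 reads in the library labelled SoxC morpholino and 4016 in the glycerol control, a ratio of 3.58. A morpholino need not lower the transcript of its target, so all directions below rest on the labels. Of 11 marker genes listed for skeletogenic, pigment, endodermal, ectodermal and neural cells, 9 had a value, each with reads in both libraries. Both neural markers were lower by the size rule defined below: Sp-Brn1-2-4 had 155 reads in the library labelled SoxC morpholino and 591 in the glycerol control, and Sp-z167 had 4 reads in the library labelled SoxC morpholino and 61 in the glycerol control. The other 7 met neither direction, with log2 ratios from -0.13 for Sp-FoxA to 1.53 for Sp-Alx1, which had 7 reads in the library labelled SoxC morpholino and 2 in the glycerol control. The markers were listed as a check of presence only, with earlier results of these data known. Of all measured models, 4.67% were lower by the size rule. The part of neural cells in the solute carrier values was not tested. In whole embryos, fewer cells of a type and less RNA per cell cannot be told apart.

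Values are the deposited normalized signal, followed by the whole reads recovered from it. The log2 ratio sets the library labelled SoxC morpholino over the control, with a pseudocount of 0.5 reads, and is therefore drawn toward 0 where reads are few. A fold or plain ratio given for a single model, and every interval, was taken without the pseudocount. Intervals in parentheses are exact 95% counting intervals, and hold no error other than that of counting. The size rule was met by a model when it was measured, its ratio was at least 2-fold on that log2 scale and its interval excluded a ratio of 1. The tables give no transcript lengths, so levels are compared for the same model between libraries and not between models.

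Solute carrier transcripts as a group lay close to all measured models. In the library labelled SoxC morpholino, 7 of the 180 measured models were lower by the size rule, or 3.89%, against 4.67% of all measured models. None of the 180 was higher, against 0.658% of all measured models. By the fold alone, with no regard to the interval, 14 of the 180 were at least 2-fold down, or 7.78% against 8.01% of all, and 2 were at least 2-fold up, or 1.11% against 1.96% of all. The median log2 ratio of the solute carriers was -0.26, with quartiles of -0.56 and 0.00, and that of all measured models was -0.21, with quartiles of -0.49 and 0.05. Of the 180, 80 had a ratio over that median and 100 one under it. Among the 98 solute carriers with at least 100 reads over both libraries, the median was -0.18, equal at this rounding to the -0.18 of all models with as many reads. Of these 98, 2 met the rule as lower, or 2.04%, against 1.36% of all models with as many reads, and none as higher, against 0.197%.

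**Figure D1:**
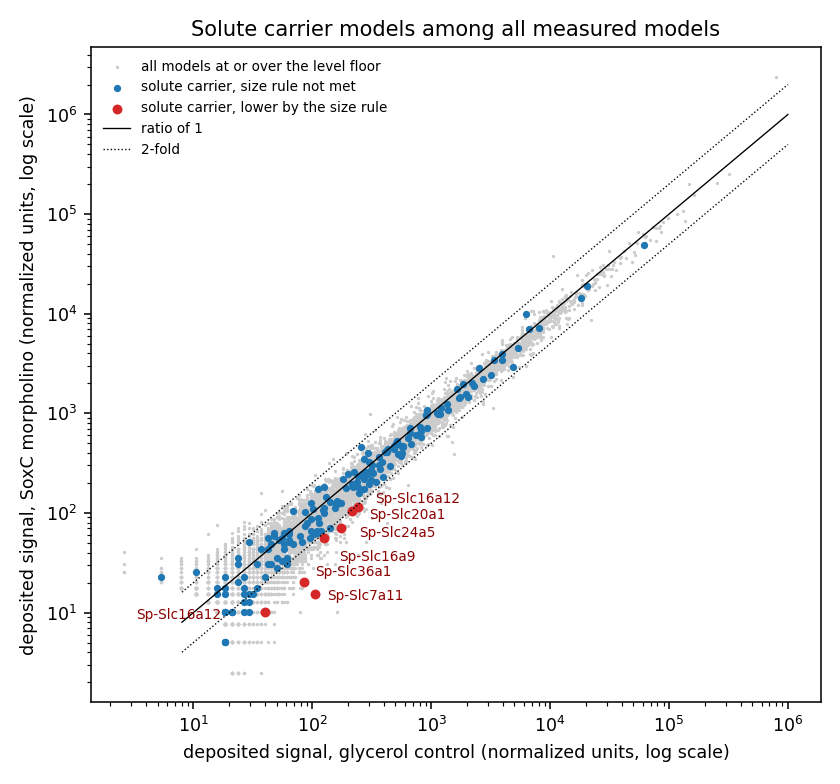
Deposited signal of each measured model in the library labelled SoxC morpholino (vertical axis) against the glycerol control (horizontal axis), both on log scales, leaving out models at 0 in either library. Solute carriers (blue) follow the cloud of all models (grey), and the 7 that met the size rule (red) lie at the low edge, with control signals of 240.9 or less.

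The lowest ratio among the solute carriers belonged to an amino acid carrier, Sp-Slc7a11 (WHL22.366112.0). In mammals Slc7a11 is the light chain of the exchanger that imports cystine and exports glutamate. Its signal was 15.3 (6 reads) in the library labelled SoxC morpholino and 105.9 (40 reads) in the glycerol control. It was 6.94-fold lower (2.92 to 20.02). Sp-Slc36a1 (WHL22.23211.0), named for a proton-coupled amino acid carrier found on lysosomes, had a signal of 20.4 (8 reads) in the library labelled SoxC morpholino and 84.7 (32 reads) in the glycerol control. It was 4.16-fold lower (1.88 to 10.5). Of the 7 lower models these amino acid carriers had the lowest ratios, and both rest on 40 or fewer reads per library.

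Carriers named for monocarboxylate transport (family 16) gave 3 of the 7 lower models. With 32 of the 180 measured models, they were also the largest measured family. Of all measured models, 4.67% were lower. Sp-Slc16a12 is named for a carrier that moves creatine in mammals. Its model WHL22.560064.0 had a signal of 114.5 (45 reads) in the library labelled SoxC morpholino and 240.9 (91 reads) in the glycerol control, and was 2.10-fold lower (1.46 to 3.08). A further Sp-Slc16a12 model, WHL22.23957.0, had 10.2 (4 reads) in the library labelled SoxC morpholino and 39.7 (15 reads) in the glycerol control, and was 3.90-fold lower (1.24 to 16.2). The other measured Sp-Slc16a12 models, WHL22.289828.0 and WHL22.523144.0, had log2 ratios of 0.34 and 0.78. Sp-Slc16a9 (WHL22.547786.1), named for a carnitine carrier of human cells, had 56.0 (22 reads) in the library labelled SoxC morpholino and 124.4 (47 reads) in the glycerol control. It was 2.22-fold lower (1.31 to 3.87).

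The remaining lower models are named for carriers of inorganic ions. Sp-Slc24a5 (WHL22.537625.0) bears the name of a potassium-dependent sodium-calcium exchanger known for its part in melanin pigmentation in fish and mammals. Its signal was 71.2 (28 reads) in the library labelled SoxC morpholino and 174.7 (66 reads) in the glycerol control, 2.45-fold lower (1.55 to 3.97). Sea urchin pigment cells make naphthoquinones, not melanin. Of the pigment cell markers, Sp-gcm, a regulator of pigment cell fate, had a log2 ratio of 0.32 and Sp-Ployketide_synthase_like, a pigment synthesis gene, one of 0.45. Which cells hold Sp-Slc24a5 transcripts, and any tie to pigment cells, was not tested. Sp-Slc20a1 (WHL22.72065.1), named for a sodium-driven phosphate importer, had 104.3 (41 reads) in the library labelled SoxC morpholino and 214.4 (81 reads) in the glycerol control. It was 2.06-fold lower (1.40 to 3.07), close to the 2-fold limit of the rule.

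**Figure D2:**
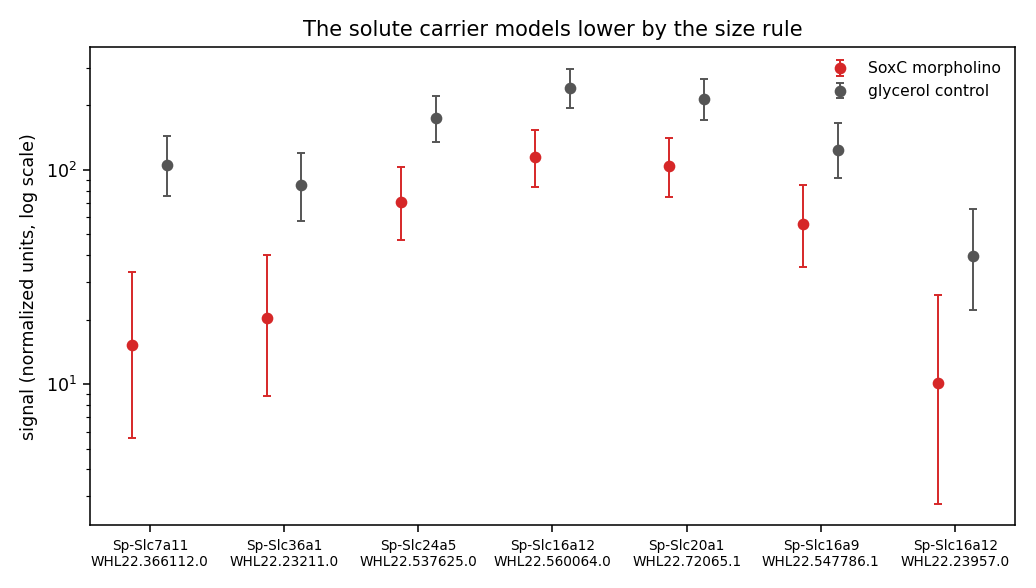
Signal of the 7 solute carrier models that were lower by the size rule, with the library labelled SoxC morpholino in red and the glycerol control in grey on a log axis. Bars are exact 95% Poisson intervals of the reads, scaled to signal; the widest belongs to Sp-Slc16a12 (WHL22.23957.0), with 4 reads in the library labelled SoxC morpholino.

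The call depended on the scaling for some of these. Scaled so that the median of ratios over all models was set to 1, a shift of 0.19 in log2 ratio, 4 of the 7 still met the rule: Sp-Slc7a11, Sp-Slc36a1, Sp-Slc24a5 and the Sp-Slc16a12 model WHL22.23957.0. Sp-Slc16a9, Sp-Slc20a1 and Sp-Slc16a12 WHL22.560064.0 did not. Under that scaling 2 solute carriers met the rule as higher, Sp-Slc25a30 and Sp-Slc23a1. The shares were 2.22% lower and 1.11% higher among solute carriers, against 2.45% and 1.44% of all measured models.

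Several of the lower models share their name with models that did not meet the rule. Near-identical copies of a gene could share reads, and how the deposited values divide them is not given in the sources used here. The name Sp-Slc7a11 stands alone on 4 measured models. Beside the lower one, WHL22.732404.0 had 1996.9 (785 reads) in the library labelled SoxC morpholino and 2213.3 (836 reads) in the glycerol control, a log2 ratio of -0.15 (-0.29 to -0.01), which turned to 0.04 with the median of ratios. WHL22.758552.1 had 99 reads in the library labelled SoxC morpholino and 122 in the glycerol control, a log2 ratio of -0.36. WHL22.205328.1 had 22 reads in the library labelled SoxC morpholino and 16 in the glycerol control, a log2 ratio of 0.39. The interval of the lower model lay wholly below those of the other 3, none of which met the size rule. The lower model was singled out as the lowest of all measured solute carriers. A gap to its namesakes follows in part from that choice and was not tested. Another measured model, WHL22.758438.0, carries both Sp-Slc7a11 and Sp-Slc7a8 and had a log2 ratio of -0.01.

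The 4 Sp-Slc16a12 models spanned log2 ratios from -1.84 to 0.78. Sp-Slc16a12 WHL22.523144.0 had 20 reads in the library labelled SoxC morpholino and 11 in the glycerol control, and its interval lay wholly above that of WHL22.560064.0. The other Sp-Slc16a9 models had many more reads than the lower one and log2 ratios of -0.23 and -0.05. In all, 23 names stood on more than 1 measured model, which gave 64 pairs of models. The intervals of 8 pairs in 5 names did not overlap. Pairs of the same name among other genes were not counted, so whether this is many or few cannot be said.

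Monocarboxylate and phosphate carriers with many reads also differed within a name or between like names. They are described here because of their values. Sp-Slc16a7, named for a lactate and pyruvate carrier, had 3 models. WHL22.734425.1 had 2889.7 (1136 reads) in the library labelled SoxC morpholino and 4852.8 (1833 reads) in the glycerol control, a log2 ratio of -0.75 (-0.86 to -0.64). WHL22.114667.0 had 7262.5 (2855 reads) in the library labelled SoxC morpholino and 8103.8 (3061 reads) in the glycerol control, a log2 ratio of -0.16 (-0.23 to -0.08), which turned to 0.03 with the median of ratios. WHL22.136791.0 was at 0.00. The interval of WHL22.734425.1 thus lay wholly below those of the other Sp-Slc16a7 models, although the model fell short of the 2-fold limit. These models were picked for their values, and the difference between them was not tested.

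Sp-Slc34a2 and Sp-Slc34a2_1 are named for a sodium-driven phosphate importer of epithelia, and stood on opposite sides of the median of all models. Sp-Slc34a2 (WHL22.119492.0) had 9892.7 (3889 reads) in the library labelled SoxC morpholino and 6285.1 (2374 reads) in the glycerol control, a log2 ratio of 0.65 (0.58 to 0.73). Sp-Slc34a2_1 (WHL22.544197.0) had 14217.1 (5589 reads) in the library labelled SoxC morpholino and 18233.0 (6887 reads) in the glycerol control, a log2 ratio of -0.36 (-0.41 to -0.31). Their intervals lay far apart, and neither model reached 2-fold.

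**Figure D3:**
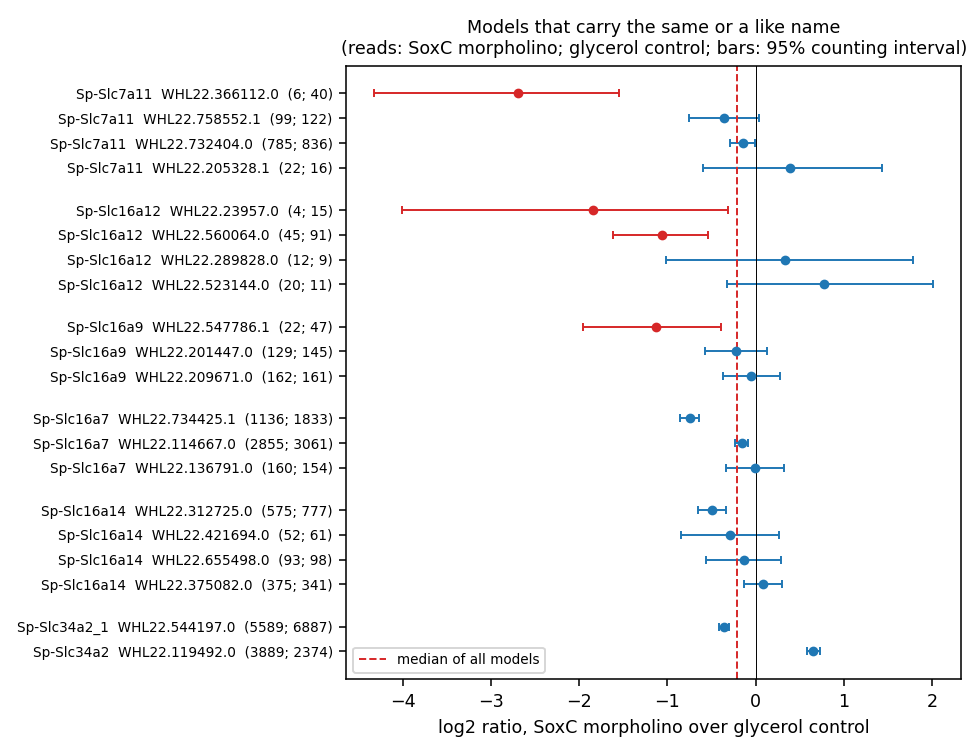
Log2 ratio, SoxC morpholino over glycerol control, for models of 6 names, with exact 95% counting intervals; models lower by the size rule are red, and the dashed line is the median of all measured models at -0.21. The lower Sp-Slc7a11 model at -2.70 stands apart from its namesakes, and Sp-Slc34a2 and Sp-Slc34a2_1 lie on either side of the dashed line.

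Small differences in models with many reads were described by whether the counting interval excluded the median ratio of all models, 0.866, a rule chosen after the values were seen. By this rule 22 of the 180 solute carriers lay above the median ratio, or 12.2%, against 12.4% of all measured models. Another 19 lay below it, or 10.6%, against 10.2% of all measured models. Both shares lay near those of all models.

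Of the amino acid carriers, 27 of 67 models were measured, 2 were lower, or 7.41% against 4.67% of all measured models, and 25 met neither direction, with a median log2 ratio of -0.28. The light chains and cationic amino acid carriers of family 7 had 15 measured models. Of these, 1 was lower. Sp-Slc7a9, named for the light chain of a cystine and basic amino acid carrier, had 529.1 (208 reads) in the library labelled SoxC morpholino and 518.9 (196 reads) in the glycerol control, a log2 ratio of 0.03. The 4 Sp-Slc7a4 models had log2 ratios from -1.64 to -0.28, the lowest from 2 reads in the library labelled SoxC morpholino and 7 in the glycerol control. The one of them whose interval lay below the median ratio of all models, WHL22.734926.0, had 157 reads in the library labelled SoxC morpholino and 215 in the glycerol control, a log2 ratio of -0.51.

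The other family 7 models did not meet the rule. The models named Sp-Slc7a8 had log2 ratios of -1.41 and 0.12, Sp-Slc7a6 one of -0.54, Sp-Slc7a7 / Sp-Slc7a6 one of -0.10 and Sp-Slc7 one of -0.15. The value of -1.41 (WHL22.536654.1) rests on 4 reads in the library labelled SoxC morpholino and 11 in the glycerol control. That model and the Sp-Slc7a6 model (WHL22.536654.2) differ only in the last part of their identifiers, so they may not be separate genes. The heavy chains that bring such light chains to the membrane belong to family 3. Both Sp-Slc3a1 models were thinly covered: WHL22.248469.2 had 12 reads in the library labelled SoxC morpholino and 16 in the glycerol control, and WHL22.245299.0 had 4 reads in the library labelled SoxC morpholino and 7 in the glycerol control. Their log2 ratios were -0.46 and -0.79, with intervals that include a ratio of 1. Sp-Slc6a7, named for a proline carrier, had 1770 reads in the library labelled SoxC morpholino and 2041 in the glycerol control, the most of this class, and a log2 ratio of -0.26.

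Several carriers of neurotransmitters had too few reads to compare. Sp-Slc17a6, named for a vesicular glutamate carrier, had 0 reads in the library labelled SoxC morpholino and 1 in the glycerol control. Sp-Slc18a2, named for the vesicular monoamine carrier, had 4 reads in the library labelled SoxC morpholino and 2 in the glycerol control. Sp-Slc32a1, named for the vesicular carrier of GABA and glycine, had 1 reads in the library labelled SoxC morpholino and 3 in the glycerol control. All 3 were below the level floor and allow no statement on a difference. Sp-Slc6a9, named for a glycine carrier of the plasma membrane, had 289 reads in the library labelled SoxC morpholino and 304 in the glycerol control, a log2 ratio of -0.13. Sp-Slc6a5-3 and Sp-Slc6a5_1, named for a glycine carrier of neurons, had log2 ratios of -0.97 and -1.12, and both intervals included a ratio of 1. Sp-Slc6a5-2 was below the floor, with 4 reads in each library. Of the same family, Sp-Slc6a6 was at -0.21. Sp-Slc6a12_1 was at 0.41, from 25 reads in the library labelled SoxC morpholino and 18 in the glycerol control. Sp-Slc5a7 is named for the carrier that brings choline into cholinergic neurons. Its model WHL22.185950.0 had 71 reads in the library labelled SoxC morpholino and 83 in the glycerol control, a log2 ratio of -0.28. The other models named Sp-Slc5a7 were below the floor or blank.

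Family 17 holds vesicular glutamate carriers and lysosomal sialic acid carriers, and was the measured part of the vesicular class. None of its 5 measured models met the rule, and the class median was -0.68. The class holds members with many and with few reads. Sp-Slc17a5, named for the lysosomal sialic acid carrier, had 194 reads in the library labelled SoxC morpholino and 197 in the glycerol control for WHL22.763651.0, and 174 reads in the library labelled SoxC morpholino and 184 in the glycerol control for WHL22.173504.0. These gave log2 ratios of -0.08 and -0.14, whereas Sp-Slc17a5 WHL22.149558.0, with 28 reads in the library labelled SoxC morpholino and 53 in the glycerol control, was at -0.97. Sp-Slc17a5 WHL22.48544.1 was at -0.79 and Sp-Slc17 at -0.68. Summed over the class, 420 reads in the library labelled SoxC morpholino and 472 in the glycerol control gave a log2 ratio of -0.23.

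The families grouped as sugar carriers had 50 models, of which 24 were blank, 14 were measured and none met the rule. Their median log2 ratio was -0.46. The grouping is by family number, and family 5 also holds carriers of other solutes, such as the choline carrier Sp-Slc5a7 and the models Sp-Slc5a5, Sp-Slc5a6 and Sp-Slc5a8. Sp-Slc5a9, named for a sodium-driven glucose and mannose carrier, had 228.9 (90 reads) in the library labelled SoxC morpholino and 389.2 (147 reads) in the glycerol control for WHL22.154357.1, a log2 ratio of -0.76 (-1.16 to -0.38). A further Sp-Slc5a9 model, WHL22.337904.0, was at -0.84. Sp-Slc45a2 had the most reads of this class, with 279 in the library labelled SoxC morpholino and 346 in the glycerol control, and was at -0.37. Sp-Slc45a1 / Sp-Slc45 had 97 reads in the library labelled SoxC morpholino and 76 in the glycerol control and was at 0.29. The facilitated glucose carrier models Sp-Slc2a8, Sp-Slc2a10L and Sp-Slc2a13 were at -0.04, -0.35 and -0.56, and both Sp-Slc2a1 models were blank.

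Carboxylate and peptide carriers formed the largest measured class, with 38 models, 3 of them lower, or 7.89% against 4.67% of all measured models, and 35 meeting neither direction. The monocarboxylate carriers of family 16 gave 32 of the 38, with a family median of -0.29. Of the 32, 3 had intervals above the median ratio of all models and 6 below it. Over all measured models the shares were 12.4% above and 10.2% below. Sp-Slc16a9L_2 (WHL22.559561.0) had the highest ratio of the class among models with at least 100 reads, with 158 reads in the library labelled SoxC morpholino and 111 in the glycerol control, a log2 ratio of 0.45 (0.09 to 0.82). The 3 measured models of family 13, named for sulfate and citrate-type carriers, all lay above the median of all models, from 0.01 for Sp-Slc13a5 to 0.38 for Sp-Slc13a2 (WHL22.52290.0). The oligopeptide carrier models of family 15 included Sp-Slc15a2, with 731 reads in the library labelled SoxC morpholino and 860 in the glycerol control and a log2 ratio of -0.29.

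Inorganic ion carriers had 16 measured models of 35, with a median log2 ratio of -0.30, 2 lower, or 12.5% against 4.67% of all measured models, and 14 meeting neither direction. Bicarbonate carriers of family 4, a family that includes carriers tied to skeleton formation in sea urchin larvae, were at the limit of the depth. Sp-Slc4a11 had 7 reads in the library labelled SoxC morpholino and 6 in the glycerol control, Sp-Slc4a10 was below the floor with 4 reads in the library labelled SoxC morpholino and 5 in the glycerol control, and both models named Sp-Slc4a2 were blank. Sp-SLC4A1AP, whose model also carries the name Sp-Smad, was at -0.28. Sp-Slc24a2, named like Sp-Slc24a5 for a sodium-calcium exchanger, had 68 reads in the library labelled SoxC morpholino and 42 in the glycerol control, a log2 ratio of 0.63 (0.06 to 1.23). The intervals of Sp-Slc24a5 and Sp-Slc24a2 did not overlap. Sp-Slc26a5_1, named for an anion carrier that acts as the motor protein prestin in mammalian hair cells, was at -0.32 from 615 reads in the library labelled SoxC morpholino and 737 in the glycerol control.

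Nucleotide sugar carriers of family 35 supply the Golgi and endoplasmic reticulum with activated sugars for glycosylation, and 18 of their 23 models were measured. None met the size rule, and the family median was -0.26. The intervals of 5 of the 18 models lay above the median ratio of all models, or 27.8% against 12.4% of all measured models. None of the 18 lay below it, against 10.2% of all measured models. The rule was chosen after the values were seen, and the difference between these shares was not tested. Intervals are narrower where reads are many, and the shares were not matched for reads. By the ratio alone, 8 of the 18 lay over the median of all models and 10 under it. The 5 models with intervals above it were Sp-Slc35a1 (WHL22.474220.0), named for the CMP-sialic acid carrier, at 0.23, and Sp-Slc35e1, Sp-Slc35b4, Sp-Slc35d1 and Sp-Slc35e3 (WHL22.535221.1), at 0.10, 0.09, 0.09 and 0.08. Sp-Slc35e3 had the most reads, with 2749 in the library labelled SoxC morpholino and 2493 in the glycerol control. Sp-Slc35f1, with 108 reads in the library labelled SoxC morpholino and 139 in the glycerol control, was the lowest of the class with at least 100 reads, at -0.42. Sp-Slc35c1, named for the GDP-fucose carrier, was at -0.28 from 876 reads in the library labelled SoxC morpholino and 1020 in the glycerol control. The single measured nucleoside carrier model, Sp-Slc28a3_3 / Sp-Slc28a3, was at -0.70.

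Metal carriers were tightly grouped. None of the 12 measured models met the rule, and their log2 ratios ran from -0.73 to 0.09 with a median of -0.21. Sp-Slc31a1, named for the copper importer of the plasma membrane, had 1539 reads in the library labelled SoxC morpholino and 1477 in the glycerol control, a log2 ratio of 0.00 (-0.10 to 0.11). Sp-Slc30a3 (WHL22.578686.0), named for a zinc carrier of vesicles, was at 0.09 from 766 reads in the library labelled SoxC morpholino and 693 in the glycerol control. Sp-Slc39a12, named for a zinc importer, was at -0.47 from 192 reads in the library labelled SoxC morpholino and 255 in the glycerol control.

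Mitochondrial carriers of family 25 exchange nucleotides, phosphate and metabolites across the inner membrane. Of 21 measured models of 31, none met the rule, and the median of -0.20 was close to that of all models. Sp-Slc25a4, named for the ADP/ATP carrier, had 49280.4 (19373 reads) in the library labelled SoxC morpholino and 61598.2 (23267 reads) in the glycerol control, a log2 ratio of -0.32 (-0.35 to -0.29). This model held 64.3% of the reads of the class, so the summed log2 ratio of -0.26 is mostly its own. Sp-Slc25a3 (WHL22.624240.0), named for the phosphate carrier, was at -0.10 from 7522 reads in the library labelled SoxC morpholino and 7748 in the glycerol control. Its interval lay above the median ratio of all models, while that of Sp-Slc25a4 lay below it. Sp-Slc25a30 (WHL22.147317.0), named for a mitochondrial carrier of the kidney, had 455.3 (179 reads) in the library labelled SoxC morpholino and 256.8 (97 reads) in the glycerol control. Its ratio of 1.77 (1.38 to 2.29) was the highest of all solute carriers with at least 100 reads. Sp-Slc25a40, at -0.65 from 62 reads in the library labelled SoxC morpholino and 94 in the glycerol control, was the lowest of this family with at least 100 reads.

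Carriers of organic ions, vitamins and lipids had no model that met the rule. Among the organic ion carriers, 12 models were measured and the median was -0.22. Sp-Slc10a2 (WHL22.276155.0), named for a sodium-driven bile acid carrier, had 2841.4 (1117 reads) in the library labelled SoxC morpholino and 2523.0 (953 reads) in the glycerol control, a log2 ratio of 0.17 (0.05 to 0.30). Sp-Slc22a18 was at -0.74 from 80 reads in the library labelled SoxC morpholino and 129 in the glycerol control, and Sp-Slc22a9 at 0.21 from 101 reads in the library labelled SoxC morpholino and 84 in the glycerol control.

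The class of vitamin, lipid and other carriers had 16 measured models and a median of -0.15. Sp-Slc23a2 and Sp-Slc23a1 are named for ascorbate carriers and lay on opposite sides of the median of all models. Sp-Slc23a2 was at -0.56 (-0.88 to -0.25) from 147 reads in the library labelled SoxC morpholino and 209 in the glycerol control. Sp-Slc23a1 had 9 reads in the library labelled SoxC morpholino and 2 in the glycerol control, a log2 ratio of 1.87 (-0.16 to 5.36), which was the highest of all measured solute carriers but included a ratio of 1. Sp-Slc46a1L_5, of a family that holds the proton-driven folate carrier, was at 0.53 from 71 reads in the library labelled SoxC morpholino and 47 in the glycerol control. Sp-Slc27a1l, named for a fatty acid carrier, was at -0.26 from 575 reads in the library labelled SoxC morpholino and 662 in the glycerol control.

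**Figure D4:**
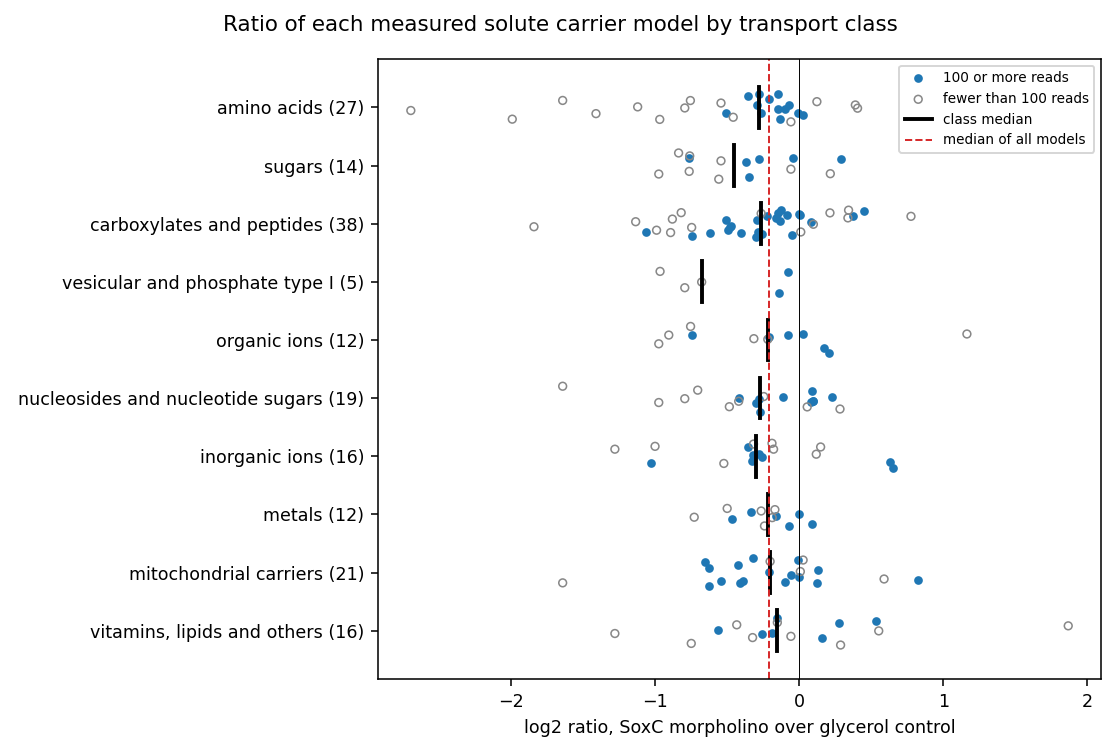
Log2 ratio, SoxC morpholino over glycerol control, for the 180 measured solute carrier models by transport class, with the number of models in parentheses. Models with at least 100 reads (filled) lie between -1.07 and 0.82, while the most extreme ratios belong to models with fewer reads (open); black bars are class medians, from -0.68 to -0.15, and the dashed line is the median of all models at -0.21.

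Other membrane transport genes, taken by name, were counted by the same rule. The ABC transporters, which use ATP and include exporters of foreign compounds, had 34 measured models, of which 6 were lower, or 17.6% against 4.67% of all measured models, none was higher and 28 met neither direction. The difference between these shares was not tested. Their median log2 ratio was -0.20. The ABC model with the most reads among the lower ones was SP-ABCB4a, with 86 reads in the library labelled SoxC morpholino and 169 in the glycerol control, 2.05-fold lower (1.57 to 2.68). The other lower ABC models had at most 9 reads in the library labelled SoxC morpholino and at most 23 in the glycerol control. Of these, Sp-ABCH1 had 0 reads in the library labelled SoxC morpholino and 9 in the glycerol control, and its model carries 39 names in all. With a floor of 5 CPM, 1 of 22 ABC models was lower, against 2.59% of all models. Scaled by the median of ratios, 3 of the 34 were lower, against 2.45% of all models.

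The organic anion carriers named Slco, which the number rule leaves out although they are solute carriers, had 17 measured models with 2 lower, or 11.8% against 4.67% of all measured models, and a median of -0.44. Scaled by the median of ratios, 0 of the 17 were lower, against 2.45% of all models. Sp-Slco4c1 had 16 reads in the library labelled SoxC morpholino and 35 in the glycerol control, 2.28-fold lower (1.23 to 4.41). Sp-Slco3a1 WHL22.414995.0 had 39 reads in the library labelled SoxC morpholino and 78 in the glycerol control, 2.08-fold lower (1.40 to 3.14). The other measured Sp-Slco3a1 model, WHL22.673931.0, had 9 reads in the library labelled SoxC morpholino and 17 in the glycerol control, and did not meet the rule. None of 9 vacuolar proton pump subunits, 2 sodium and calcium pump models or 10 aquaporins met the rule, with medians of 0.02, -0.35 and -0.24.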

How the data were processed

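The authors deposited 1 table per library with a normalized signal per transcript model, its gene prediction and its gene name. The submitters' processing notes name CASAVA 1.8 and Bowtie. How reads were counted and scaled, and on which genome build, is not given in the sources used here. Within each library the deposited signal moved in whole steps, of 2.54 in the library labelled SoxC morpholino and of 2.65 in the glycerol control. Division by the step gave whole reads within 0.1 for 99.985% of models with a value in the library labelled SoxC morpholino and 99.977% in the glycerol control. Each model was used once, although it may stand on several rows.

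Solute carriers were grouped by family number into 10 transport classes. The deposited scaling was kept. Log2 ratios of single models had a pseudocount of 0.5 reads. Folds and plain ratios of single models, log2 ratios of summed reads and the exact Clopper-Pearson 95% intervals (scipy 1.17.1) had none. The size rule asked for a mean of 1 CPM, 2-fold and an interval that excludes 1, and its code was checked on simulated reads. The 2-fold limit was put on the pseudocount scale after the values were seen: without the pseudocount, 419 models in place of 412 were lower, and the same 7 solute carriers were among them. Members, lists and rules were chosen with earlier results of these data known.

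Named genes were all members meeting the size rule, in each class the member with the most reads and the highest and lowest ratio among those with at least 100 reads, and measured members of families 3, 4, 7, 17, 18 and 32. Other names were chosen after their values were seen. Whether reads stand for separate molecules is unknown. Alternatives were other scalings, floors, folds and pseudocounts.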

Additional observations from a re-analysis of the deposited data

How the results depend on the processing

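Against 7 solute carriers lower and 0 higher, scaling by the median of ratios left 4 lower and 2 higher. Scaling by the upper quartile did the same, with 4 and 2. Of all measured models, 2.45% were lower and 1.44% higher with the median of ratios. With the upper quartile these shares were 2.35% and 1.54%. A fold of 1.5 gave 18 lower (9.87% of all measured models were lower) and 3 higher (1.61% of all). A fold of 3 gave 3 lower (1.78% of all), and the fold alone 14 lower (8.01% of all) and 2 higher (1.96% of all). Models with at least 100 reads, an alternative chosen after seeing the data, gave 2 lower (1.36% of all models with as many reads). Total reads gave 8 lower, or 4.44% against 5.28% of all measured models. A floor of 5 CPM gave 5 lower of 126, without Sp-Slc36a1 and Sp-Slc16a12 WHL22.23957.0. That share of 3.97% lay over the 2.59% of all models at that floor, whereas the main share lay under that of all models. The same 7 were lower with no floor, with pseudocounts of 0.1 and 2 reads, with none (these 3 chosen after seeing the data) and with models of solute carrier names only. The lower share of all models was 3.34% with no floor and from 4.39% to 4.75% in the others. Against 2 lower organic anion carriers, either of the 2 scalings gave 0, 3-fold 0 and 1.5-fold 4. Against 6 lower ABC transporters, either scaling gave 3, 3-fold 3 and a floor of 5 CPM 1 of 22, while 1.5-fold gave 1 higher. Against no aquaporin in either direction, 1.5-fold gave 1 lower and the fold alone 1 lower and 1 higher. For these lists too, the shares of all models at each setting are those given above. Other folds, floors and read limits change these counts by construction, and the 2 scalings by a shift of 0.19 and 0.21 in every log2 ratio.

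The median of the solute carriers was -0.26 as deposited, -0.31 with total reads, -0.07 with the median of ratios and -0.05 with the upper quartile. Relative to all models it was -0.05 under each scaling, by construction, because a scaling shifts every log2 ratio alike. The relative median was -0.02 with a floor of 5 CPM and -0.07 with no floor. Relative class medians ran from -0.53 to -0.22 for the vesicular class and from -0.35 to -0.17 for sugars, and changed sign for amino acids, metals, mitochondrial carriers, nucleosides with nucleotide sugars, and organic ions. Of the log2 ratios of named models under other settings, 240 stayed within their counting interval and 25 did not, and no model that met the size rule changed sign. No paired analysis was possible because only 1 library stands in each group. With few reads, models below the floor allow no statement on a difference.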
